A study of Mus musculus with 50 samples.

Results

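Msantd3, Prom2, Akr1c18, Osbpl10, Lama5, Abcc5, Card10 and Rhbdf1 are 8 of the 45792 genes in the count table of a mouse liver tumour series. They were selected on measured values, being among the genes with the smallest p when tumours of mice not given diethylnitrosamine (DEN, a liver carcinogen) were set against non-tumour liver. All 8 were higher in those tumours by selection, so their values in that contrast are given as a description. The test concerned tumours of mice given DEN, which took no part in the selection, and the effect of diet.

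The animals were C3H/He mice, a strain prone to liver tumours, fed a control diet or the American lifestyle (ALIOS) diet, which is rich in fat and trans-fat and is given with fructose in the water, with the harvest labelled as 48 weeks. RNA-seq was available for 23 non-tumour livers, 12 from mice on the control diet and 11 from ALIOS fed mice. Of the tumours from mice not given DEN, 13 were labelled as ALIOS fed and 1 as control fed, and of the 13 DEN tumours, 8 were ALIOS fed and 5 control fed. No non-tumour liver came from a mouse given DEN, so DEN and tumour cannot be told apart in the comparison with liver, and the DEN groups had no livers of their own. No label ties a tumour to a mouse or to a liver, so the p-values measure the spread between these libraries, some of which may share an animal. Tumour T1, labelled as an ALIOS diet tumour, held kidney transcripts (47648 CPM summed over 12 kidney markers) and was left out, which left 49 libraries of 50, with 26 tumours and 23 livers. Total counts per library over all 50 ranged from 23798251 to 45751398. All 16 hepatocyte markers had reads in livers and in tumours. In tissue RNA, fewer cells of a type and less RNA per cell cannot be told apart.

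The 8 genes belong to different families. Prom2 encodes prominin 2, a cholesterol-binding protein of plasma membrane protrusions, and Akr1c18 encodes 20-alpha-hydroxysteroid dehydrogenase, the enzyme that inactivates progesterone. Lama5 encodes the alpha 5 chain of laminin, a basement membrane protein, Osbpl10 a lipid transfer protein of the oxysterol-binding family, and Abcc5 an ATP-driven exporter of organic anions and cyclic nucleotides. Card10, also called CARMA3, is a scaffold that joins BCL10 and MALT1 to activate NF-kB, and Rhbdf1 encodes iRhom1, an inactive rhomboid protein needed for the trafficking of ADAM17, the protease that releases ligands of the EGF receptor. Msantd3 encodes a protein with a Myb/SANT-like DNA-binding domain whose role is little studied.

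The genes lie on separate chromosomes apart from Prom2 and Lama5, which are both on chromosome 2 (GRCm38). Prom2 spans chr2:127526473-127541467 on the minus strand and Lama5 chr2:180176373-180225859 on the minus strand. Akr1c18 spans chr13:4132615-4150654 on the minus strand, beside other genes of its family. Msantd3 spans chr4:48539935-48561919 on the plus strand and Osbpl10 chr9:114978569-115232225 on the plus strand. Abcc5 spans chr16:20331303-20426394, Card10 chr15:78775138-78803042 and Rhbdf1 chr11:32209585-32222300, all on the minus strand. No member shared an exonic base with another annotated gene.

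Promoter sequences from RefSeq (GRCm38.p6, 250 bases before to 50 bases after a start site) were given for 6 of the 8 genes, the exceptions being Rhbdf1 and Osbpl10. They are shown for the genes with the largest changes that have 1 listed start, and for Abcc5, the one promoter of the 6 genes without a GC box. Capitals mark the GC box, GGGCGG on either strand. The windows are chr2:127541368-127541667, chr13:4150597-4150896, chr2:180225810-180226109 and chr16:20426345-20426644, and each sequence is written along the minus strand, on which the gene lies.
Prom2: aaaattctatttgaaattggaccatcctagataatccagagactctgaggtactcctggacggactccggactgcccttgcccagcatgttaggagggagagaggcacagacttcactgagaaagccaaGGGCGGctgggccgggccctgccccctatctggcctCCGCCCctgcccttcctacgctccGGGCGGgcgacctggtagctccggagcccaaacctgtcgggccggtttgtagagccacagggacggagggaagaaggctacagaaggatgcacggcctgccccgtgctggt
Akr1c18: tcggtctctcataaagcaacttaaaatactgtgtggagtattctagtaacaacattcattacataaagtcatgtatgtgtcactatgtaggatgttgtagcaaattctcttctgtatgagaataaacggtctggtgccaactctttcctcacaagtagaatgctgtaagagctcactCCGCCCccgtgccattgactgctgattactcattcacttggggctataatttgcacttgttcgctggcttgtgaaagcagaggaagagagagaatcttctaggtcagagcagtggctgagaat
Lama5: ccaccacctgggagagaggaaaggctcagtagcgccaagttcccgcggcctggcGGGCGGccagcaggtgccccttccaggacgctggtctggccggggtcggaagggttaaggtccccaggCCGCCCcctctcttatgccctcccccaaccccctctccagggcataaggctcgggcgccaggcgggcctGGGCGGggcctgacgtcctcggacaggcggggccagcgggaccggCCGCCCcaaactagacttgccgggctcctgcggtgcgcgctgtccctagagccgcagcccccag
Abcc5: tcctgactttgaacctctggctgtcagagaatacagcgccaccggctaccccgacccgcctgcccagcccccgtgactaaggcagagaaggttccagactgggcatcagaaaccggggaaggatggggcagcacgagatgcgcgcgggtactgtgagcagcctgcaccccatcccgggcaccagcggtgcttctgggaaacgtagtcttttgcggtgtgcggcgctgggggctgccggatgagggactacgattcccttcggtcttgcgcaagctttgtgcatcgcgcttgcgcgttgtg

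A GC box was present in 5 of 6 genes with a sequence, against 38.2% of 27025 genes with a listed promoter. Letters of other motifs were searched on both strands in the same windows. AP-1 (TGANTCA), CRE (TGACGTCA), the E-box (CACGTG), the TATA box (TATAAA), the TCF motif (CTTTGAT) and the antioxidant response element (TGACNNNGC) were found in 0 of 6, and these letters were present in 9.0%, 2.0%, 8.1%, 15.7%, 4.3% and 14% of genes, respectively. The ETS letters (CCGGAA) were found in 1 of 6, Card10, and in 16.7% of genes. Base composition varied among the members. The Akr1c18 promoter had 42.3% G and C bases, below the median of 52.7% over all genes, whereas Prom2 had 61.3%, Abcc5 63.0%, Lama5 72.7% and Card10 77.0%. The 3 listed Msantd3 promoters had between 50.3% and 86.0%.

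Levels are given as CPM, the count of a gene scaled to 1000000 reads per library after TMM adjustment of the totals. In the contrast that selected the genes (13 tumours without DEN against 23 livers), ranked by p among 14610 genes, Akr1c18 was at rank 2, Msantd3 4, Prom2 5, Rhbdf1 11, Card10 12, Abcc5 15, Lama5 23 and Osbpl10 26. Ranked by fold, Prom2 was at rank 1 and Akr1c18 at rank 3, whereas Card10 was at rank 575, so the members differed widely in the size of the change. Just inside and just outside the last member lay Col4a3 (log2 fold change 6.48) at rank 25, Osbpl10 (4.85), and then Cacna1c (5.97), Galnt6 (5.74) and Glp2r (7.31) at ranks 27 to 29. The list is therefore a choice among the top genes and not the full top of the ranking.

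**Figure D1:**
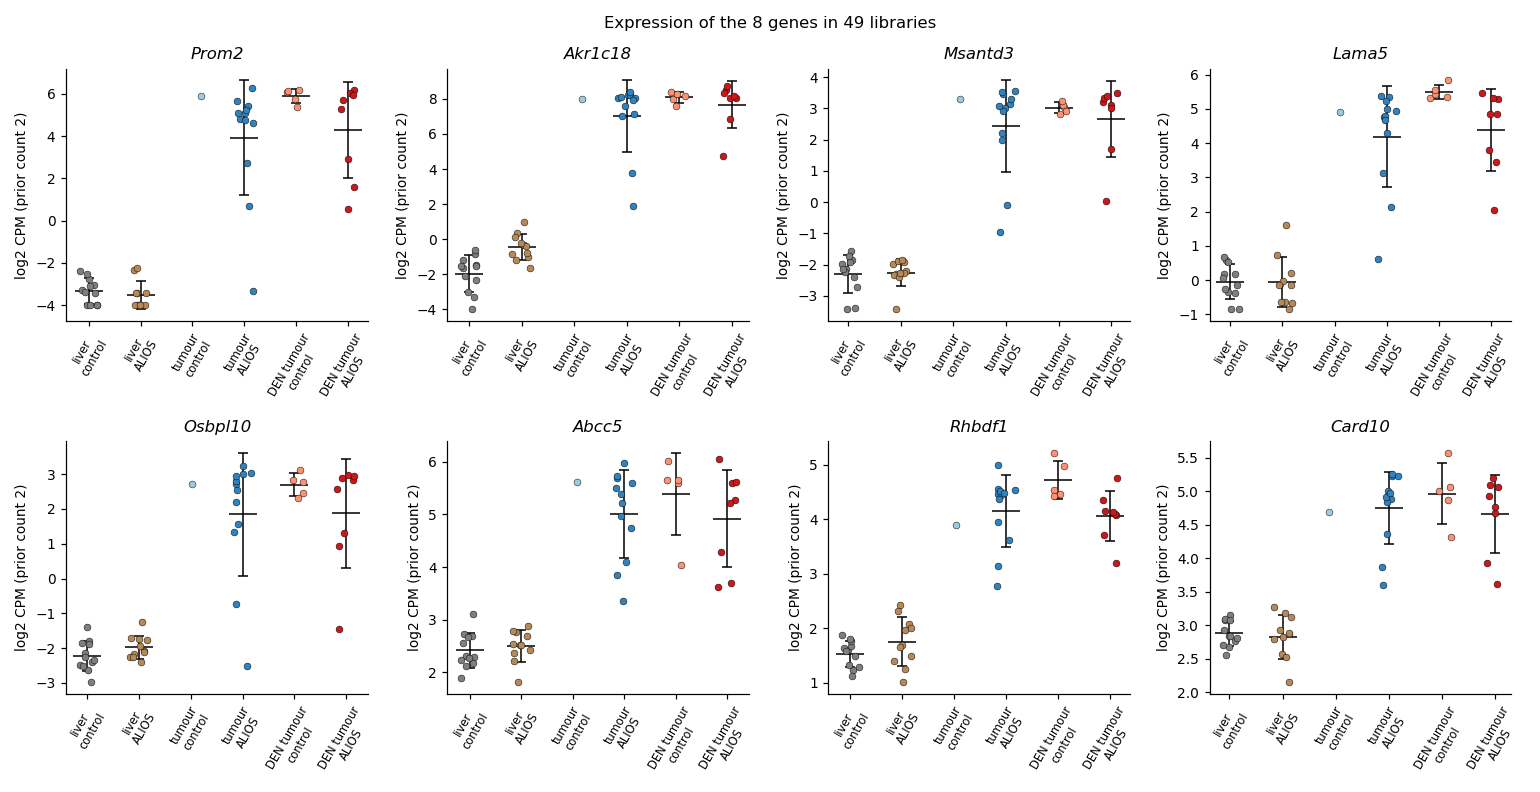
Level of each gene (log2 CPM with a prior count of 2) in the 49 libraries by group, each point 1 library, with the mean (horizontal line) and SD (bars) of groups with more than 1 library. Tumours lie above livers for each gene, except T2 for Prom2, Osbpl10 and Lama5 and T23 for Osbpl10, and tumours on the ALIOS diet hold a tail of low values that the 5 control diet DEN tumours do not, apart from Abcc5.

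Prom2 was close to silent in liver. The 23 livers together held 26 Prom2 reads (exact 95% Poisson interval 17 to 38.1, counting error only), and 10 livers held none. The 12 ALIOS diet tumours without DEN had a lowest level of 0.0375 CPM (T2), a median of 31.4 and a highest of 79.0, and the lone control diet tumour had 59.5 CPM. All of those tumours except T2, with 1 read, were above the highest liver, at 0.147 CPM.

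The 5 control diet DEN tumours had 67.9, 41.4, 53.4, 71.1 and 72.5 CPM of Prom2 (T17 to T21). The 8 ALIOS diet DEN tumours ranged from 1.38 (T24) to 73.4 CPM (T15), with a median of 45.5. Every DEN tumour was above every liver. The log2 fold change of DEN tumours over livers, with diet in the model, was 10.20 ± 0.48 (SE, n = 13 and 23), equal to 1172-fold (adjusted p = 3.84e-19, edgeR quasi-likelihood test with Benjamini-Hochberg adjustment, used for all adjusted p-values below). With so few liver reads the size of this fold is poorly fixed.

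Akr1c18 was low in liver and abundant in tumours. The 12 control diet livers ranged from 0 to 0.590 CPM, with a median of 0.273, and the 11 ALIOS diet livers from 0.255 to 1.91, with a median of 0.699. The ALIOS diet tumours without DEN ranged from 3.60 (T2) to 332 CPM (T4), with a median of 253. These groups did not overlap with liver.

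In the control diet DEN tumours T17 to T21, Akr1c18 was at 343, 284, 253, 308 and 195 CPM. The ALIOS diet DEN tumours ranged from 26.2 (T23) to 432 CPM (T24), with a median of 278. No DEN tumour overlapped with liver, and the log2 fold change was 9.10 ± 0.35, or 548-fold (edgeR adjusted p = 2.94e-21).

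Msantd3 was detected in all 23 livers, at 0.0304 to 0.275 CPM (median 0.156), from 103 reads in all. The ALIOS diet tumours without DEN ranged from 0.451 (T2) to 11.8 CPM (T8), with a median of 8.25. The control diet DEN tumours T17 to T21 had 8.12, 8.59, 6.98, 7.5 and 9.42 CPM, the narrowest spread of the 8 genes in that group (SD 0.17 on the log2 scale). The ALIOS diet DEN tumours ranged from 0.967 (T23) to 11.2 CPM (T26), with a median of 8.81. No tumour of any group overlapped with liver, and DEN tumours were 50.5-fold above livers (log2 5.66 ± 0.24, edgeR adjusted p = 3.69e-20).

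Lama5 ranged from 0.491 to 3.01 CPM in the 23 livers, with a median of 0.854. The ALIOS diet tumours without DEN ranged from 1.46 (T2) to 41.4 CPM (T9), with a median of 27.3, so that T2 was inside the liver range. In the control diet DEN tumours T17 to T21 the levels were 41.0, 40.2, 42.9, 57.4 and 46.6 CPM. The ALIOS diet DEN tumours ranged from 4.10 (T23) to 44.3 CPM (T26), with a median of 28.8, and all DEN tumours were above all livers. The change was 33.9-fold (log2 5.08 ± 0.26, edgeR adjusted p = 3.22e-18).

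Osbpl10 was the one gene for which a DEN tumour overlapped with liver. The livers ranged from 0.0644 to 0.358 CPM (median 0.166, 121 reads in all). T23, an ALIOS diet DEN tumour, had 0.305 CPM from 12 reads, and the other 7 in its group were higher, up to 7.85 CPM (T26), with a group median of 6.51. The control diet DEN tumours T17 to T21 had 7.02, 6.83, 5.44, 8.66 and 4.90 CPM, all above liver. Without DEN, T2 at 0.113 CPM lay inside the liver range and the ALIOS diet tumours reached 9.31 CPM (T13), with a median of 6.14. DEN tumours were 31.0-fold above livers (log2 4.95 ± 0.26, edgeR adjusted p = 1.02e-17).

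The other 3 genes were expressed in all livers and rose less. Abcc5 was at 3.45 to 8.59 CPM in livers (median 5.68) and at 12.3 (T25) to 66.0 CPM (T26) in DEN tumours (median 48.1), with 64.6, 48.4, 50, 50 and 16.3 CPM in the control diet DEN tumours T17 to T21. T21 was the lowest of these 5 tumours for Abcc5, Card10, Akr1c18, Osbpl10 and Rhbdf1 and the highest for Prom2 and Msantd3. Rhbdf1 was at 1.95 to 5.32 CPM in livers (median 3.06) and at 9.13 (T23) to 37.2 CPM (T20) in DEN tumours (median 20.4), the control diet DEN tumours having 23.1, 22.2, 31.4, 37.2 and 21.4 CPM. Card10 was at 4.37 to 9.63 CPM in livers (median 7.11) and at 12.2 (T23) to 47.4 CPM (T20) in DEN tumours (median 30.3), the control diet DEN tumours having 29.2, 31.9, 33.4, 47.4 and 19.8 CPM.

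None of these 3 genes overlapped between livers and DEN tumours. In DEN tumours Abcc5 was 7.19-fold higher (log2 2.85 ± 0.18, edgeR adjusted p = 9.41e-16), Rhbdf1 6.77-fold (2.76 ± 0.14, adjusted p = 5.83e-18) and Card10 4.06-fold (2.02 ± 0.12, adjusted p = 2.54e-16). In the ALIOS diet tumours without DEN the medians were 39.3 CPM for Abcc5, 21.9 for Rhbdf1 and 30.2 for Card10, and the lowest library was T2 for each, at 10.1, 6.76 and 12.1 CPM.

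Together, 8 of 8 genes were called higher in DEN tumours, where 35.7% of 15606 genes tested were called higher. The median log2 fold change of the 8 was 5.02, against 0.07 over all genes tested. The livers in this comparison were also those of the selecting contrast, so only the tumours were new. A call of higher was frequent among all genes. A stricter description is the lack of any overlap, which held for 7 of 8 members between 13 DEN tumours and 23 livers and for 1.67% of all genes tested.

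The rise was present on each diet. On the ALIOS diet (8 DEN tumours, 11 livers) 8 of 8 genes were called higher, against 27.7% of 14434 genes, and log2 fold changes ranged from 1.92 ± 0.18 for Card10 to 10.01 ± 0.87 for Prom2. On the control diet (5 DEN tumours, 12 livers) 8 of 8 were called higher, against 27.3% of 14731 genes, from 2.16 ± 0.14 for Card10 to 10.35 ± 0.27 for Prom2. On the ALIOS diet 7 of 8 did not overlap between tumour and liver (3.87% of all genes), the exception being Osbpl10, and on the control diet 8 of 8 did not overlap (11.2% of all genes). The highest edgeR adjusted p among the members was 3.21e-07 in ALIOS fed and 5.86e-10 in control fed mice, both for Abcc5.

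**Figure D2:**
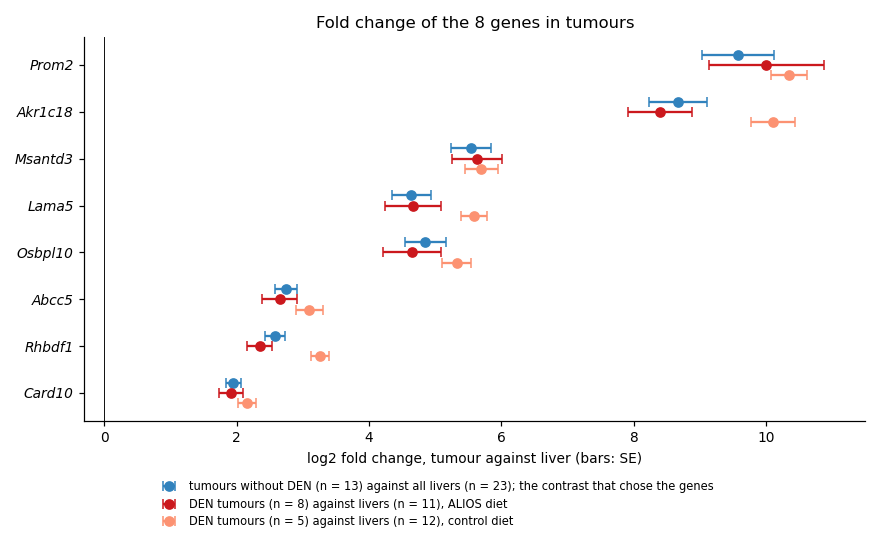
Log2 fold change of each gene between tumour and liver with its SE, in the contrast that selected the genes (13 tumours without DEN, 23 livers) and in DEN tumours of ALIOS fed mice (8 against 11) and control fed mice (5 against 12). The values run from about 2 for Card10 to about 10 for Prom2, and the control diet value is the highest of the 3 for each gene.

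Set side by side, the changes in tumours without DEN, which chose the genes, and in DEN tumours were 9.58 and 10.20 for Prom2, 8.67 and 9.10 for Akr1c18, 5.54 and 5.66 for Msantd3, and 1.95 and 2.02 for Card10 (log2, same livers in both). Diet was in the model for the DEN tumours only. Within the ALIOS diet, where the models were alike, the values were 9.64 and 10.01 for Prom2 and 8.01 and 8.40 for Akr1c18. They were 5.49 and 5.63 for Msantd3 and 1.96 and 1.92 for Card10. On the ALIOS diet, DEN tumours differed from tumours without DEN by log2 values between -0.15 ± 0.24 (Rhbdf1) and 0.33 ± 0.55 (Akr1c18), given without a test because the tumours without DEN had selected the genes. The single control diet tumour without DEN, T7, was above all 12 control diet livers for 8 of 8 genes. Its level was 462 times the highest of those livers for Prom2 and 2.90 times for Card10, with no replicate. T7 was itself among the tumours that selected the genes, so its values are a description and no repeat of the rise. Set against the livers of both diets, 18.1% of all genes tested were above the highest liver in T7.

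The difference between diets in the rise was tested as an interaction, and 0 of 8 genes were called by edgeR, where 2.27% of 15606 genes were called in either direction. At an unadjusted p under 0.05 there were 2 members of 8, where 16.8% of all genes tested passed, and DESeq2 called 1, where it called 4.21% of genes. With so few members, these counts were not read as particular to them. Rhbdf1 rose less on the ALIOS diet, with a difference of -0.91 ± 0.26 in log2 fold change that just missed the threshold (edgeR adjusted p = 0.0505), and was the gene DESeq2 called (adjusted p = 0.0232). The call also appeared with another scaling of the libraries and when T21, T22 or T24 was left out. Its median level was 17.3 CPM in ALIOS diet DEN tumours and 23.1 in control diet DEN tumours, and the livers were at 3.17 and 2.96 CPM. For Akr1c18 the difference was -1.70 ± 0.58 (edgeR adjusted p = 0.113), the interval of 2 SE running from -2.87 to -0.53. For Msantd3 the interval ran from -1.07 to 0.94, and for Prom2 from -3.70 to 3.0, which leaves room for several-fold differences in either direction.

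In non-tumour liver, Akr1c18 was the one member called by diet, at 1.61 ± 0.40 higher on the ALIOS diet (log2, n = 11 and 12, edgeR adjusted p = 0.0131), where 6.73% of 13723 genes tested were called higher. Its level stayed under 2 CPM in all livers, and the call was lost when all 6 groups shared 1 estimate of the spread (adjusted p = 0.0827). Lama5, Abcc5, Card10 and Rhbdf1 were tested and not called, with differences between -0.02 ± 0.11 (Card10) and 0.27 ± 0.15 (Rhbdf1). Prom2, Msantd3 and Osbpl10 had too few reads in liver to pass the filter.

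Among DEN tumours, 0 of 8 genes were called between diets by edgeR (n = 8 and 5) and 0 by DESeq2, where edgeR called 0.0134% of 14944 genes in either direction and DESeq2 1.04%. An unadjusted p under 0.05 was found for 1 member, Rhbdf1, and for 8.52% of all genes tested. Rhbdf1 was lower on the ALIOS diet without passing the adjustment, with a log2 difference of -0.62 ± 0.22 (ALIOS minus control, edgeR adjusted p = 0.420). All 8 differences were negative, from -0.07 ± 0.41 for Msantd3 to -0.80 ± 0.42 for Lama5. The share of all genes with a negative difference was not computed, and the median over all genes tested was 0.04. The 8 genes were correlated in these tumours, so their signs are not separate results. Without T23 the difference turned positive for Msantd3 (0.10) and Akr1c18 (0.0909). The widest interval of 2 SE was that of Prom2, -2.13 to 0.77, which leaves room for a level severalfold lower on the ALIOS diet. The spread between DEN tumours was larger on the ALIOS diet for 8 of 8 genes, without a test. The share of all genes with a larger spread on that diet was not computed, so this count is not read as particular to the members. The SD of log2 CPM of Prom2 was 2.27 there and 0.35 on the control diet, and that of Akr1c18 was 1.32 and 0.31.

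**Figure D3:**
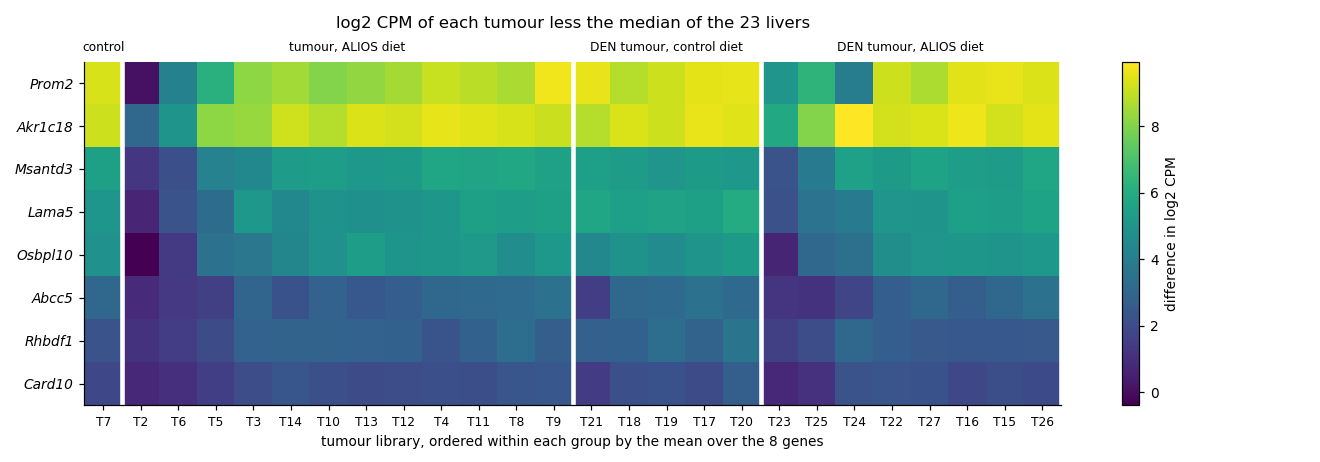
Log2 CPM of each gene in each of the 26 tumours less the median of the 23 livers, with tumours grouped and, within a group, ordered by the mean over the 8 genes. T2, T6 and T5 among tumours without DEN and T23 and T25 among ALIOS diet DEN tumours are low for most genes, and T24 is low for Prom2 and highest for Akr1c18.

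Taken tumour by tumour, all 8 genes were above the highest of the 23 livers in 24 of 26 tumours. T2 reached it for 5 of 8, failing for Prom2, Osbpl10 and Lama5, and T23 for 7 of 8, failing for Osbpl10. The tumours without DEN and all livers had selected the genes, so for those tumours the count is a description. Among the DEN tumours, which took no part in the selection, all but T23 had 8 of 8. The share of all genes tested that lay above the highest liver was between 10.4% and 27.2% per tumour, with a median of 20.6%.

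The low tumours were largely the same for all genes. T2, T6 and T23 were among the lowest 5 of 26 tumours for 8 of 8 genes, T25 for 7 and T5 for 5. T24 differed from these, being among the lowest 5 for 2 genes and among the highest 5 for 2. T9, T20 and T26 were among the highest 5 for 5 genes each. T2, T5, T6, T23 and T25 also had the 5 lowest shares of all genes tested above the highest liver. Those shares were 13.6%, 14.2%, 10.4%, 11.2% and 13.8%, respectively, and the other tumours had at least 18.1%. Low values in these 5 tumours were thus not read as particular to the 8 genes.

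Marker sums of other kinds differed among these tumours. The summed level of the 16 hepatocyte markers was 96562 CPM in T2, 108545 in T6, 103751 in T23, 114807 in T25 and 163068 in T5, against a median of 203248 over the 26 tumours and of 136458 over the livers (range 99099 to 170932). The lowest hepatocyte sum of all 26 tumours was that of T24, at 91804 CPM, although T24 was not low for most of the 8 genes. The summed level of the erythroid markers, 6 of 8 of them in the table, was 245 CPM in T2, 190 in T5, 97.8 in T6, 244 in T23 and 455 in T25, against a median of 76.0 in tumours (range 22.1 to 455) and 156 in livers (range 103 to 274). The 12 macrophage markers summed to 543 CPM in T2, 298 in T5, 516 in T6, 591 in T23, 338 in T25 and 844 in T24, against a median of 275 in tumours and 377 in livers (range 199 to 977). All 5 low tumours were thus below the tumour median for the summed hepatocyte markers and above it for the summed erythroid and macrophage markers, and so was T24. A sum need not stand for each of its markers. Of the 16 hepatocyte markers, 5 were called higher and 6 lower in DEN tumours against livers (median log2 fold change -0.23), although the tumour median of the sum was above that of livers. In T24 the 12 stellate and fibroblast markers summed to 1341 CPM, the highest of any tumour and above the livers (197 to 751). No hepatocyte, macrophage or stellate marker was at 0 in a whole group, and of the erythroid markers Hba-a2 was at 0 in all livers. The part of these differences in the levels of the 8 genes was not tested.

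Within the 25 tumours of the 3 groups with replicates, with each group's mean removed, Pearson's r over the 28 pairs of the 8 genes ranged from 0.65 (Prom2 with Rhbdf1) to 0.97 (Msantd3 with Akr1c18), with a median of 0.83, and Spearman's rho from 0.33 to 0.92, with a median of 0.69. Of these tumours 12 had also selected the genes, so these values are a description. An r at or above that median was reached by 0.962% of all pairs among 12702 genes with a mean of at least 1 CPM, and by 1.53% of pairs among the 4591 of them called higher in DEN tumours.

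The 13 DEN tumours took no part in the selection. In them r ranged from 0.12 (Prom2 with Rhbdf1) to 0.97 (Osbpl10 with Lama5), with a median of 0.75, a value reached by 6.06% of all pairs among the 12702 genes and by 8.02% among those called higher. By 2-sided permutation within groups with Benjamini-Hochberg adjustment over the 28 pairs, 21 pairs passed by r and 8 by rho (rho 0.16 to 0.95, median 0.62), so the count depended on which measure was used. The 8 pairs were Osbpl10 with Lama5, Abcc5 and Prom2, Lama5 with Prom2 and Abcc5, Akr1c18 with Msantd3 and Rhbdf1, and Card10 with Rhbdf1. After leaving out the 2 tumours farthest from the median of the first gene of each pair, most often T23 and T25, r ranged from -0.11 to 0.96, with a median of 0.47.

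Leaving out T2, T5, T6, T23 and T25 from the 25 tumours, a choice made on these same genes after their values were seen, narrows the range of the values and so lowers r by construction. Over the remaining 20 tumours r ranged from -0.49 to 0.82 with a median of 0.10, and 10 of 28 pairs were negative. Prom2 with Lama5 had the highest r (0.82, rho 0.74), followed by Lama5 with Abcc5 (r 0.63).

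**Figure D4:**
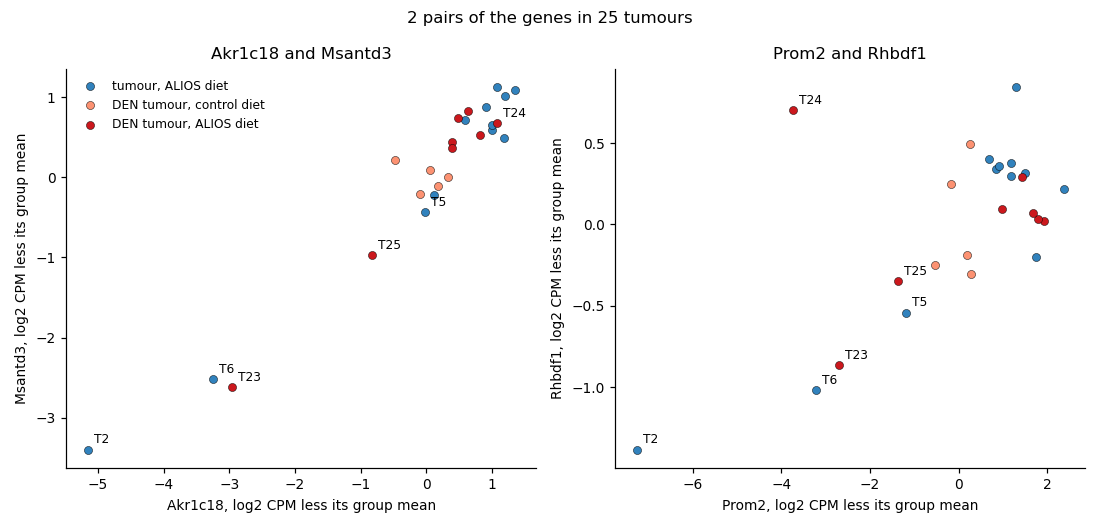
Levels of the pairs with the highest and the lowest r (Akr1c18 with Msantd3, and Prom2 with Rhbdf1) in 25 tumours, as log2 CPM less the mean of the tumour's group. T2, T6 and T23 lie far from the rest in both panels, and T24 lies apart for Prom2 with Rhbdf1.

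The genes most like each member over the same 25 tumours (largest Spearman's rho among 12702 genes with a mean of at least 1 CPM, a description) were in part members themselves. Akr1c18 was second for Msantd3 and Msantd3 for Akr1c18 (rho 0.89), after Tnfrsf12a (0.89) and Cd63 (0.92), respectively. Dpf1 was first for both Prom2 (0.93) and Lama5 (0.92), followed by Scd2 for Prom2 (0.93) and by Prom2 for Lama5 (0.92). The others were Golm1 (0.97) and Cd40 (0.96) for Osbpl10, Tg (0.91) and Lif (0.90) for Abcc5, Traf5 (0.89) and Csnk1e (0.85) for Card10, and Pdlim7 (0.91) and Cyb5r1 (0.88) for Rhbdf1. Genes outside the 8 thus followed single members as closely as other members did, and the low tumours enter these values too.

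Levels of different genes were compared per kilobase of exon. In the 13 DEN tumours the median was 236 CPM per kilobase for Akr1c18, 10.3 for Prom2, 6.13 for Card10, 4.50 for Abcc5, 4.33 for Msantd3, 3.75 for Rhbdf1, 3.49 for Lama5 and 1.33 for Osbpl10. Akr1c18 did not overlap with any other member over these DEN tumours, its lowest being at 21.7 and the highest of Prom2 at 14.2, whereas every other pair of neighbours in this order overlapped. Over all 26 tumours Akr1c18 did overlap, with a lowest value of 2.99 (T2) against a highest of 15.2 for Prom2 (T9). In liver the order was different, with Card10 highest at 1.44 and Prom2 lowest at 0.00607.

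Genes related to each member were set beside it in the comparison of DEN tumours with livers, where 35.7% of all genes were called higher and 26.9% lower. In the EGF receptor list, which holds the partners of iRhom1 and the receptor with its ligands, 9 of 14 tested were higher and 2 lower (median log2 fold change 0.76). By smallest p the first were Frmd8, which binds and stabilises iRhoms, at 1.0 ± 0.08 (edgeR adjusted p = 3.75e-13), and Rhbdf2, encoding iRhom2, at 1.27 ± 0.10 (adjusted p = 4.50e-13). Both genes lower were receptors, Erbb4 (-2.23 ± 0.47) and Egfr (-1.10 ± 0.33). Egfr fell from a liver median of 455 CPM to 166 in DEN tumours with overlapping ranges. The ligand Areg, named after its values were seen, went from a liver median of 0 CPM to 0.832 in DEN tumours, and Hbegf, also named afterwards, from 0.602 to 3.77.

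**Figure D5:**
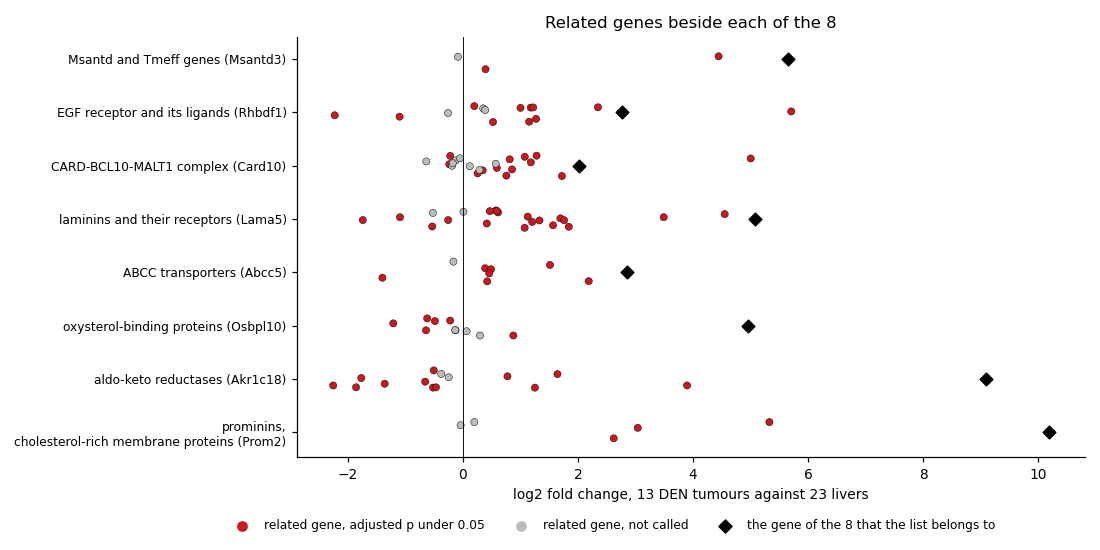
Log2 fold change in 13 DEN tumours against 23 livers of the genes related to each of the 8 (circles, red where the edgeR adjusted p was under 0.05 and grey otherwise) and of the gene itself (diamond). The member lies to the right of its relatives for each list except that of Rhbdf1, where Areg is at 5.71, and that of Card10, where Card14 is at 5.0.

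In the list of the CARD-BCL10-MALT1 complex and its downstream kinases, 11 of 21 were higher and 2 lower (median 0.34). Bcl10, the adaptor that Card10 binds, rose by 1.18 ± 0.12 (edgeR adjusted p = 7.12e-11) and Prkcd, a protein kinase C, by 0.75 ± 0.08. Card14, a relative of Card10 named after its values were seen, rose by 5.0 ± 0.53 but stayed low, at a median of 0.726 CPM. Those lower were Rhoa (-0.22 ± 0.06) and Ikbkg (-0.24 ± 0.10).

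Of the laminins and their receptors, 15 of 21 were higher and 4 lower (median 0.61). Nid1, which links laminin to collagen IV, went from a liver median of 10.7 CPM to 339 in DEN tumours (4.55 ± 0.26, edgeR adjusted p = 5.39e-17). Itga6, a laminin-binding integrin subunit, went from 2.48 to 27.2 CPM (3.49 ± 0.27), and both overlapped with liver in the lowest tumours. The alpha chain Lama3 fell by 1.74 on the log2 scale (SE 0.38).

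Akr1c18 went against most of its family. Of 14 other aldo-keto reductases tested, 8 were lower and 4 higher (median -0.49), the lower ones including Akr1c14 (-1.36 ± 0.10, edgeR adjusted p = 4.55e-14) and the higher ones Akr1b3, encoding aldose reductase (1.64 ± 0.13), and Akr1b7 (3.90 ± 0.56). Members of the Akr1c subfamily are similar in sequence, and how reads mapping to several of them were treated was not stated, so their separate counts carry that uncertainty. Osbpl10 likewise stood apart, with 1 of 10 oxysterol-binding proteins tested higher, Osbpl3 (0.88 ± 0.22), and 6 lower (median -0.18), led by Osbpl9 (-0.62 ± 0.07).

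Of 8 other ABCC transporters tested, 6 were higher and 1 lower (median 0.44). Abcc4, also an exporter of cyclic nucleotides, rose by 2.19 ± 0.33 (edgeR adjusted p = 5.10e-07) and Abcc12 by 1.51 ± 0.33, and Abcc6 fell by 1.40 (SE 0.32). Of 5 tested proteins listed beside Prom2, 3 were higher and 0 lower (median 2.62): Prom1, its close relative, from a liver median of 0.478 to 26 CPM in DEN tumours (5.33 ± 0.32, adjusted p = 2.57e-16), Cav2 (3.04 ± 0.23) and Cav1 (2.62 ± 0.24), both caveolins. Of 3 tested genes of a list of Msantd and Tmeff genes set beside Msantd3, Tmeff2 (4.44 ± 0.68) and Msantd2 (0.39 ± 0.13) were higher (median 0.39). Tmeff2 is not a relative of Msantd3.

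Markers of cell types moved in the same comparison. Of those tested, higher and lower calls numbered 5 and 6 of 16 for hepatocytes, 2 and 2 of 10 for cholangiocytes, 1 and 5 of 12 for macrophages, 8 and 1 of 10 for T cells and 1 and 1 of 7 for B cells. They numbered 6 and 1 of 12 for endothelial cells, 7 and 3 of 12 for stellate cells and fibroblasts, 1 and 0 of 2 for kidney, 1 and 2 of 3 for red cells, 1 and 0 of 1 for pancreas acinar cells and 3 and 0 of 3 for adipocytes. On each diet alone, higher and lower calls of T cell markers were fewer, 0 and 0 of 9 tested on the ALIOS diet and 3 and 1 of 5 on the control diet. The summed T cell markers ranged from 2.30 to 21.8 CPM in livers and from 3.03 to 29.4 in DEN tumours, and the summed cholangiocyte markers from 118 to 379 CPM and from 102 to 223, so both overlapped. The 12 kidney markers summed to at most 7.57 CPM in livers and 23.5 in the 26 tumours. The part of these cell types in the rise of the 8 genes was not tested.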

How the data were processed

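Stranded mRNA libraries were read as pairs of 100 bases. The authors mapped reads to mm10 using the 2-pass mode of STAR, and counted reads on exons of Gencode M6 genes with HTSeq in intersection-nonempty mode. Versions of these tools and the strand option are not given in the sources used here. The deposited values were raw counts per gene, not normalized, with 1 column for each of 50 samples. Groups were taken from the sample labels. Counts were filtered with filterByExpr, the lone control diet tumour being put with the ALIOS diet tumours without DEN for the filter alone, scaled by TMM and fitted with the quasi-likelihood test of edgeR 4.0.16 in R 4.3.3, with only the groups compared in each fit. A Benjamini-Hochberg adjusted p under 0.05 over all genes tested was a call, and an SE is the log2 fold change divided by the square root of F. Diet was a covariate where DEN tumours of both diets entered. DESeq2 1.42.0, RLE scaling, no filter, a fit of all 6 groups and leaving out each DEN tumour were alternatives. Correlations used 100000 permutations in numpy 2.4.6, with 1e-05 the smallest p they can give. Counts of reads are not counts of molecules, and the Poisson interval covers counting error only. Intervals of 2 SE come from the edgeR fit and include the spread between libraries. Genes with a few reads per liver, Prom2 above all, are measured with a large counting error. Named genes were all 8 members, from each related list the 2 higher and the 1 lower gene with the smallest p plus those needed to complete a count of up to 3, and for each member the 2 genes most like it. The members, the 8 lists of related genes and the 11 lists of markers were chosen with earlier results of these data known.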

Additional observations from a re-analysis of the deposited data

Results flagged for a closer look

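In 16 sets of values (8 genes in each of the 2 groups of DEN tumours), 3 held 1 tumour set apart from its group by Dixon's ratio. For a single set, chance alone gives this in about 1 of 20. The genes were measured in the same tumours and were correlated (Akr1c18 with Osbpl10, r 0.88 in DEN tumours). The sets are thus not separate trials, and the number flagged cannot be set against that rate. Tumour T23 was low for Akr1c18, at 4.72 log2 CPM against 6.85 to 8.75 in the other ALIOS diet DEN tumours (ratio 0.528), and for Osbpl10, at -1.45 against 0.92 to 2.98 (ratio 0.535). Tumour T21 was low for Abcc5, at 4.04 log2 CPM against 5.60 to 6.01 in the other control diet DEN tumours (ratio 0.791).

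Tumour T1, left out of all comparisons for its kidney transcripts, held 7 of the 8 genes above the highest of the 23 livers. The share of all genes above the highest liver was not computed for T1, so this count is not read as particular to the members. The 16 hepatocyte markers of T1 summed to 11882 CPM, against 99099 to 170932 in livers, so its tissue content differed. The part of that content in the values below was not tested. It had 101 CPM of Lama5 and 73.6 of Card10, more than any of the 26 tumours (up to 57.4 and 47.4), and 8.67 CPM of Osbpl10, more than 25 of them. It had 43.5 CPM of Abcc5, 29.1 of Rhbdf1, 8.01 of Prom2 and 3.97 of Msantd3. Akr1c18, at 0.500 CPM, was inside the liver range. These T1 values were scaled by its total count alone.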

How the results depend on the processing

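All 8 genes were called higher in DEN tumours against livers, over both diets and on each diet, with RLE scaling, without a filter, with DESeq2, with all 6 groups in 1 fit and without any 1 of the DEN tumours. RLE scaling moved the median log2 fold change of all genes from 0.07 to 0.05. For the difference between diets in the rise, RLE scaling and DESeq2 each called 1 member (Rhbdf1), and leaving out 1 tumour gave 0 to 1 members, 1 without T21, T22 or T24. Rhbdf1 was then at an adjusted p of 0.0132 (without T24) to 0.134. The genes called in all rose to 657 with DESeq2 and ran from 174 (without T17) to 732 (without T24). For diet in non-tumour liver, the fit of all 6 groups called 600 genes and 0 members. For diet in DEN tumours 2 genes were called, 1 without the filter, 155 with DESeq2, 231 with all 6 groups and 0 to 19 without 1 tumour (19 without T22), and no member in any of these. The sign of small differences between diets turned when 1 tumour was left out, from -0.17 to 0.10 for Msantd3 in the rise, from -0.17 to 0.10 for Msantd3 in DEN tumours and from -0.23 to 0.0909 for Akr1c18 in DEN tumours. The cause of these changes was not tested. Over 25 tumours, 12 of which had selected the genes, the median r of the 28 pairs was 0.83, and it was 0.86 without T24, both given as a description. In 2 alternatives added after the values were seen, the 13 DEN tumours were taken alone, and T2, T5, T6, T23 and T25 were left out. In the DEN tumours 21 pairs passed by r and 8 by rho. Without the 5 low tumours the median r over 20 tumours was 0.10, a removal that narrows the range of the same values. No paired analysis was possible because livers and tumours carry separate numbers and no label ties a tumour to a liver of its mouse. Depth limits Prom2, Msantd3 and Osbpl10 in liver, and 5 control diet DEN tumours limit the tests of diet.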
